A study of Mus musculus with 32 samples.

Results

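Nuclear genes for the mitochondrial respiratory chain and the ATP synthase were followed in early-passage primary mouse embryonic fibroblasts (MEFs) across genotype and irradiation. Members were all probe sets annotated to a single gene whose symbol begins with Nduf, Uqcr, Cox4, Cox5, Cox6, Cox7, Cox8 or Atp5, or is Sdha, Sdhb, Sdhc, Sdhd, Cycs or Cyc1. They covered 92 of the 18193 genes named alone by a probe set, with 184 of 45137 probe sets, 160 on Affymetrix array type A and 24 on array type B. A further 10 probe sets that name several genes were left out. The 16 RNA extracts fell into 4 groups of 4 replicates: wild type and Oct-1 mutant fibroblasts, each either unirradiated or irradiated. Each extract was hybridised to both array types, which gave 32 samples. Oct-1, encoded by Pou2f1, is a POU domain transcription factor that binds the octamer motif. The labels do not state the radiation dose, the time after it, the nature of the Oct-1 mutation, the age and strain of the embryos or whether replicates came from separate embryos. The p-values therefore measure only the spread between these samples, which may be technical.

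The respiratory chain passes electrons from NADH (complex I) and succinate (complex II) through ubiquinone, complex III and cytochrome c to oxygen at complex IV, and the proton gradient it builds drives ATP synthesis by complex V. Complex I has a peripheral arm with the NADH-oxidising N module and the ubiquinone-reducing Q module, and a proton-pumping membrane arm. Most subunits are nuclear-encoded. Transcription factors NRF-1, GABP (an ETS factor) and YY1 are known regulators of many of these genes. The core subunits of the mitochondrial genome were not among the annotated probe sets and were not analysed here.

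Promoters of 5 members are shown because the results turn on these genes or because they hold a searched motif. Each sequence is the 250 bases before the annotated start (RefSeq, GRCm38.p6), written 5′ to 3′ on the strand of the gene, with motif matches in capitals. Cox6b2 lay at chr7:4753095-4753344 (minus strand), Ndufaf4 at chr4:24897833-24898082 (plus strand), Ndufb6 at chr4:40279422-40279671 (minus strand), Ndufa8 at chr2:36049339-36049588 (minus strand) and Ndufs4 at chr13:114388095-114388344 (minus strand). Cox6b2 held no match. The capitals mark the NRF-1 core, matched on both strands, in Ndufaf4, the ETS motif in Ndufb6, the NRF-1 core in Ndufa8 and the octamer in Ndufs4.
Cox6b2: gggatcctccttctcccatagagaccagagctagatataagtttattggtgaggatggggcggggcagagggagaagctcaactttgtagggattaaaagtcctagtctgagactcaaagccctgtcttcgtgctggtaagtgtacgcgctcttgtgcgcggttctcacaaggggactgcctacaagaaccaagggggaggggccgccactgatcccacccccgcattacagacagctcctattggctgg
Ndufaf4: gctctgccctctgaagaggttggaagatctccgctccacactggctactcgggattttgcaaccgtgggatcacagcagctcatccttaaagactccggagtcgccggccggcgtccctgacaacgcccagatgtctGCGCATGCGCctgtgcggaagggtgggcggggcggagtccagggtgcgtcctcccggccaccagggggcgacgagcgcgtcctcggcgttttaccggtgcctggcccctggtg
Ndufb6: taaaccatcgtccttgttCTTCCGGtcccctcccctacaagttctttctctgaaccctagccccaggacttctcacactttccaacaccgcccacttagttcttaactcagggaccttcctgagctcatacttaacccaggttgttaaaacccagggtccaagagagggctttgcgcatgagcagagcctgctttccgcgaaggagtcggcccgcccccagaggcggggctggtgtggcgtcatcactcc
Ndufa8: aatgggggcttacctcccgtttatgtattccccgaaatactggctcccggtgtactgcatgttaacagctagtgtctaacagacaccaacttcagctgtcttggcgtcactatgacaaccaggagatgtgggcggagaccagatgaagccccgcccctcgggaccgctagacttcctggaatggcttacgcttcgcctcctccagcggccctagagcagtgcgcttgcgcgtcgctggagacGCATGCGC
Ndufs4: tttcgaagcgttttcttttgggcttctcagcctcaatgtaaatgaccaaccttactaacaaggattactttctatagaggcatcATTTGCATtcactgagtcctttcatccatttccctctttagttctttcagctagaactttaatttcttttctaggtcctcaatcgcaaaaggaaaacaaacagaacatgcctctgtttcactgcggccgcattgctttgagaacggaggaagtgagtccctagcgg

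RefSeq windows of 300 bases, from 250 before to 50 after the start, were listed for 75 of the 92 member genes and searched on both strands. The octamer ATGCAAAT occurred in 1 member window (1.33%), that of Ndufs4, and in 532 of the windows of 27025 genes (1.97%). The NRF-1 core GCATGCGC, which overlaps its own reverse complement, occurred in 12 member windows (16%) and in 3.05% of all genes. An ETS motif CCGGAAG occurred in 19 (25.3%, against 9.93%), and the YY1 motif AAGATGGCG in 7 (9.33%, against 1.64%). The median GC content was 59% in member windows and 52.7% in all windows, and its part in these shares was not tested. Among the 31 genes with a window that rose with irradiation in the comparison averaged over genotype, 10 held the ETS motif and 5 the NRF-1 core. Among the other 39 measured genes with a window, 9 and 7 did. A match describes the letters of a window, not binding.

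Values are log2 probe set signals, in which a difference of 1 is a doubling. Tests were run on probe sets whose mean reached the 40th percentile of their array type. This kept 158 member probe sets (143 on array A and 15 on array B) for 85 genes. The 26 that fell below it left 7 genes unmeasured: the muscle isoforms Cox6a2, Cox7a1 and Cox8b, Cox7b2 (a testis isoform), Cox7c, Ndufa4l2 and Ndufb4. Kept probe sets numbered 69 for complex I (33 genes), 10 for its Nduf-named assembly factors, 7 for complex II, 14 for complex III, 4 for cytochrome c, 26 for complex IV and 28 for complex V. A probe set was called at a limma adjusted p under 0.05, adjusted over all probe sets of its array type.

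Across the series, p53 target genes checked the irradiation labels: 14 of 16 gene measurements rose in irradiated cells, with a median log2 difference of 0.93. No probe set was annotated to Pou2f1, and the level of the mutated gene could not be checked. All 16 fibroblast marker genes passed the filter, as did 0 of 5 endothelial, 2 of 6 annotated adipocyte, 3 of 8 macrophage and blood, 4 of 14 muscle, 4 of 7 epithelial and 5 of 6 neural markers. Over the extracts, the mean level of a list ran from 9.94 to 10.59 for fibroblast markers. It ran from 4.96 to 5.22 for epithelial and from 4.50 to 4.96 for neural markers, near the 4.96 that the filter required on array A. On array A the Gapdh control gave a 3′ over 5′ log2 ratio between -0.24 and 0.16, and the group ranges overlapped. Sample titles fall into 2 runs of numbers, with replicates 1 and 2 of every group in run 1 and replicates 3 and 4 in run 2. Median member values were 0.06 higher in run 2, and 0.15 higher for complex IV and 0.13 for complex III. The runs are balanced over the groups.

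The first comparison asked how irradiation moved the respiratory chain, averaged over both genotypes. The median difference was above 0 in each of the 5 complexes, by small amounts, with the fewest calls in complex II. Of the 158 member probe sets, 46 rose and 2 fell, against 4.5% called higher and 3.01% called lower of all 27084 probe sets tested (7.51% called in all). Calls were more frequent on array A, which holds most members: there 32.9% of 143 members were called, 31.5% higher, against 12.8% of all array A probe sets, 7.38% higher and 5.47% lower. On array B 1 of 15 members was called, against 2.14%. The called members were 30.4% of those tested and belonged to 36 genes, of which 35 rose and 1, Ndufaf4, fell. The median member difference was 0.12, and 135 of 158 lay above 0, whereas all probe sets had a median of 0.01 and 56% above 0. Members are abundant transcripts, so highly expressed probe sets are a closer background: on array A, in the highest of 5 equal level bins, 34.8% of 115 members were called, with a median of 0.13, and 16.1% of 2602 other probe sets, with a median of 0.03. Of 20 fibroblast marker measurements, 4 fell with irradiation (Pdgfra -0.72, Pdgfrb -0.56, Twist1 -0.49 and Prrx1 -0.42), 25% of the 16 on array A. Over all 20 the median was -0.02 and 9 lay above 0. The part of these markers in the member differences was not tested. With the replicate number as a block, 73 members rose and 3 fell, when 14.9% of all probe sets were called. On array A the block called 51% of members and 25.2% of all probe sets. The count dropped to 29 without wild type irradiated replicate 3 and to 31 without wild type unirradiated replicate 3 or Oct-1 mutant irradiated replicate 4. The member median ran from 0.11 to 0.13 over all 16 omissions, and was 0.10 after quantile normalization.

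**Figure D1:**
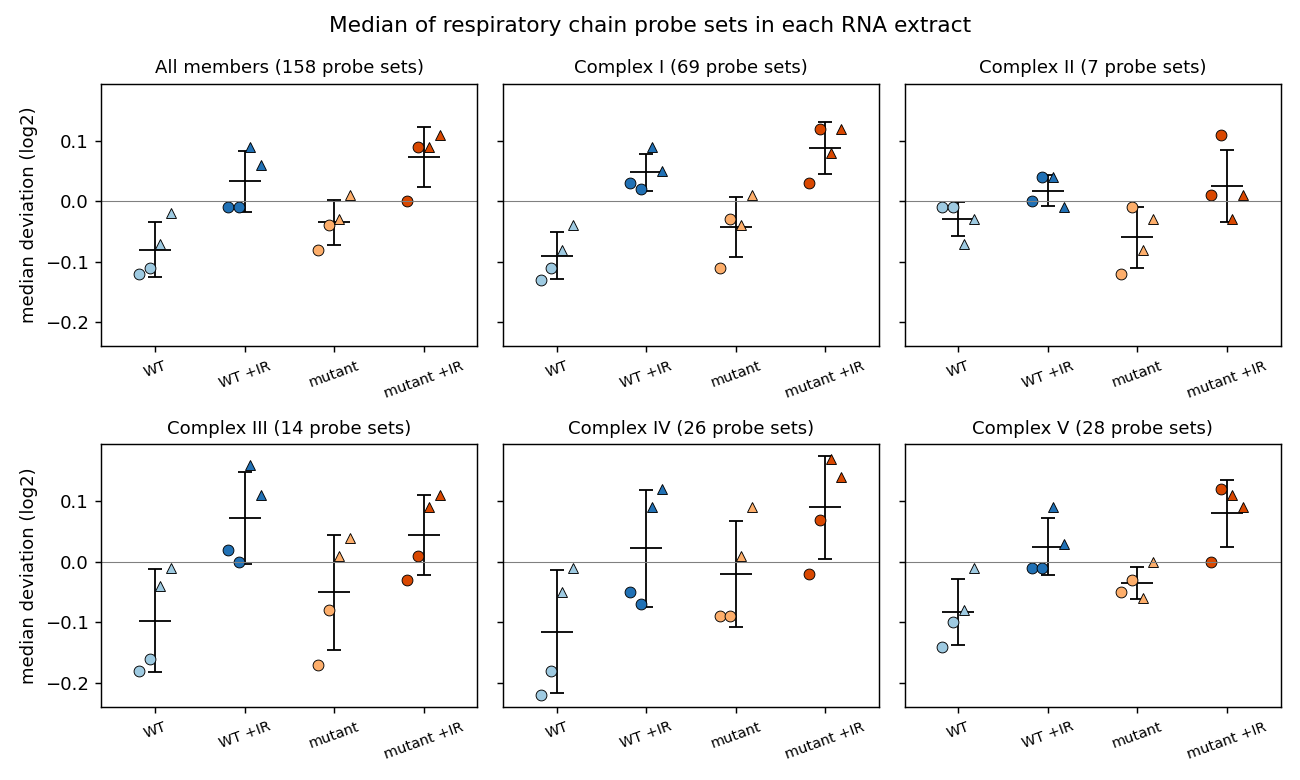
Median log2 deviation of member probe sets from their own mean over all 16 extracts (y axis) in the 4 groups (x axis; WT is wild type and +IR irradiated), for all members and for complexes I to V. Circles are extracts of number run 1 and triangles of run 2, and the black line and bar are the group mean and SD (n = 4). For all members the wild type extracts lay from -0.12 to -0.02 unirradiated and from -0.01 to 0.09 irradiated.

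Each extract can be read by the median deviation of the 158 probe sets from their own means. Wild type unirradiated extracts gave -0.12, -0.11, -0.07 and -0.02, and wild type irradiated ones -0.01, -0.01, 0.09 and 0.06. The groups did not overlap. Oct-1 mutant unirradiated extracts gave -0.08, -0.04, -0.03 and 0.01, and irradiated ones 0.00, 0.09, 0.09 and 0.11, where replicate 1 of the irradiated cells fell within the unirradiated range. For complex I alone, wild type extracts ran from -0.13 to -0.04 unirradiated and from 0.02 to 0.09 irradiated, and mutant extracts from -0.11 to 0.01 and from 0.03 to 0.12, without overlap in either genotype. For complex III they were separate in wild type cells and overlapped in the mutant, and for complex IV they overlapped in both. In each group run 2 lay above run 1 for complexes III and IV. In bulk RNA, a change in the number of cells of a type and a change in RNA per cell cannot be told apart.

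In complex I, which has the most probe sets, 25 of 69 (36.2%) rose, a share like the 35.7% of complex V. Most were on array A, where 7.38% of all probe sets were called higher. None of complex I was called lower, with a median of 0.13 and 65 above 0. In the membrane arm, Ndufb6 (1434057_at), an accessory subunit, read 11.41, 11.30, 11.48 and 11.49 in wild type unirradiated cells, 11.74, 11.71, 11.77 and 11.73 in wild type irradiated, 11.47, 11.45, 11.56 and 11.44 in mutant unirradiated and 11.57, 11.75, 11.74 and 11.71 in mutant irradiated cells. Every irradiated extract lay above every unirradiated one, the closest being mutant irradiated replicate 1. The averaged rise was 0.26 (SE 0.04, 1.2-fold, limma adjusted p = 0.000333). A second Ndufb6 probe set differed by 0.03 (adjusted p = 0.791). Ndufc2, another membrane arm subunit, rose on both array types. Its array B probe set read 11.41, 11.44, 11.46 and 11.61 in wild type unirradiated, 11.78, 11.79, 11.88 and 11.81 in wild type irradiated, 11.46, 11.59, 11.40 and 11.18 in mutant unirradiated and 11.77, 11.77, 11.75 and 11.66 in mutant irradiated cells. Again no irradiated value fell within the unirradiated range, and the rise was 0.33 (SE 0.05, adjusted p = 0.00188). On array A, 1416366_at rose by 0.22 (SE 0.04, adjusted p = 0.00117), also without overlap, while 1455036_s_at (0.13) and the dim array B probe set 1431670_at (0.00) were not called.

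Other membrane arm subunits that rose were Ndufb2 (0.37 and 0.27 by its array A probe sets), Ndufb11 (0.27 and 0.13), Ndufb7 (0.21 and 0.25), Ndufa3 (0.21 and 0.18), Ndufa8 (0.18), Ndufb8 (0.18) and Ndufb9 (0.11). Ndufb7 1416417_a_at read 10.64, 10.68, 10.75 and 10.81 in wild type unirradiated, 10.91, 10.90, 10.97 and 10.83 in wild type irradiated, 10.69, 10.76, 10.73 and 10.73 in mutant unirradiated and 10.84, 10.97, 11.11 and 10.99 in mutant irradiated cells. All irradiated extracts lay above all unirradiated ones (adjusted p = 0.00399). Ndufb2 1416834_x_at read 10.12, 10.11, 10.34 and 10.46 in wild type unirradiated, 10.53, 10.46, 10.80 and 10.60 in wild type irradiated, 10.22, 10.25, 10.37 and 10.47 in mutant unirradiated and 10.64, 10.71, 10.70 and 10.85 in mutant irradiated cells. The wild type ranges met at 10.46 and the mutant ranges were separate (adjusted p = 0.00156).

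In the N module, Ndufv1, which carries the NADH-binding flavin, rose by 0.22 (SE 0.05, adjusted p = 0.00786). Its values in wild type irradiated cells, 10.39, 10.47, 10.58 and 10.38, overlapped the unirradiated ones, 10.40, 10.38, 10.23 and 10.36. Mutant irradiated values of 10.75, 10.72, 10.52 and 10.61 all lay above the unirradiated 10.27, 10.44, 10.34 and 10.22. Ndufs4, an N module accessory subunit whose loss causes a Leigh-like disease in mice and the one member with an octamer in its window, rose by 0.21 by 1448959_at (SE 0.04, adjusted p = 0.00476). Its other probe sets gave 0.10 (1438166_x_at) and 0.03 (1459760_at, array B) and were not called. By 1448959_at it ran from 9.99 to 10.14 in wild type unirradiated, 10.14 to 10.24 in wild type irradiated, 9.93 to 10.17 in mutant unirradiated and 10.25 to 10.36 in mutant irradiated cells. The wild type ranges met at 10.14 and the mutant ranges were separate. The flavoprotein partner Ndufv2 (0.15), Ndufa7 (0.25 and 0.23) and Ndufa2 (0.17) of the same module rose as well. In the Q module Ndufs8 (0.22 and 0.18), an iron-sulfur subunit, and Ndufa9 (0.16) rose, and Ndufab1, the mitochondrial acyl carrier protein, rose by 0.18 with one probe set.

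Among the 10 probe sets of complex I assembly factors, the 2 of Ndufaf4, which helps build the peripheral arm, fell. By 1435333_at it read 7.28, 7.78, 7.82 and 7.60 in wild type unirradiated, 6.92, 6.75, 6.43 and 6.93 in wild type irradiated, 7.46, 7.10, 7.30 and 6.89 in mutant unirradiated and 6.64, 6.60, 6.60 and 6.74 in mutant irradiated cells. Irradiated extracts lay below unirradiated ones within each genotype, though across genotypes the mutant unirradiated replicate 4 fell within the wild type irradiated range. The averaged difference was -0.70 (SE 0.10, 0.615-fold, limma adjusted p = 0.000286), and that of 1427997_at -0.40 (SE 0.07, adjusted p = 0.00225). By the latter probe set, mutant irradiated replicate 4, at 9.21, stood above the other 3 (8.76 to 8.80) and inside the mutant unirradiated range. The 8 other assembly factor probe sets gave differences from -0.09 to 0.24 (Ndufaf3 and Ndufaf2), and none was called.

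In complex II, which also serves the tricarboxylic acid cycle, 1 of 7 probe sets rose. All 7 were on array A, where 12.8% of all probe sets were called, 7.38% higher. Sdhb, the iron-sulfur subunit, read 10.91, 10.97, 11.03 and 11.12 in wild type unirradiated, 11.12, 11.08, 11.23 and 11.25 in wild type irradiated, 10.77, 10.87, 10.95 and 11.14 in mutant unirradiated and 11.08, 11.16, 11.15 and 11.08 in mutant irradiated cells. Its ranges overlapped in both genotypes, the rise was 0.17 (SE 0.05, adjusted p = 0.0428), and the call was lost on leaving out any of 13 extracts. Sdha, the flavoprotein, gave 0.17 (adjusted p = 0.0951) and 0.02 by its probe sets, and the membrane anchors Sdhc 0.12 and -0.06 and Sdhd 0.12 and -0.01.

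Complex III had 3 risen probe sets of 14, most of them on array A, where 7.38% of all probe sets were called higher. Uqcrc1, a core protein, read 10.88, 10.61, 10.61 and 10.91 in wild type unirradiated, 11.11, 10.96, 11.00 and 11.03 in wild type irradiated, 10.82, 10.77, 10.77 and 10.87 in mutant unirradiated and 11.15, 11.08, 10.99 and 11.07 in mutant irradiated cells. Irradiated and unirradiated extracts did not overlap, and the rise was 0.27 (SE 0.05, adjusted p = 0.0027). The small accessory subunits Uqcr11 (0.22) and Uqcr10 (0.24 by 1434341_x_at) rose too. Uqcrc2, the other core protein, gave -0.10 and 0.02, and the catalytic subunits Cyc1 and Uqcrfs1 gave 0.04 and 0.09 without a call. For Cycs, the mobile carrier cytochrome c, the 4 probe sets ran from -0.06 to 0.07 and none was called.

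In complex IV, 7 of 26 probe sets rose, against 7.38% of all array A probe sets, with a median of 0.13. Beside Cox6b2, these were Cox4i1 (0.25), Cox5b (0.19 and 0.16), Cox6b1 (0.21) and Cox8a (0.30), all widely expressed nuclear subunits, and Cox7a2l (0.31), a supercomplex assembly factor. Cox4i1 read 12.38, 12.60, 12.68 and 12.83 in wild type unirradiated and 12.78, 12.75, 13.05 and 13.04 in wild type irradiated cells, with overlap, and 12.56, 12.72, 12.79 and 12.83 against 12.83, 12.95, 13.01 and 12.94 in the mutant, where the ranges met at 12.83. Its SE was 0.07 and its adjusted p 0.0233, or 0.000328 with the replicate block. Of the tissue isoforms, Cox4i2 (5.0) and Cox8c (5.18 on array A) had means just above the level of 4.96 that the filter required and differed by -0.06 and -0.03. Cox7a2 (0.10 and 0.09), Cox6a1 (0.08 and 0.11) and Ndufa4 (0.09), now assigned to complex IV, were not called.

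In complex V, 10 of 28 probe sets rose, with a median of 0.12. Most were on array A, where 7.38% of all probe sets were called higher. Atp5d, the delta subunit of the F1 central stalk, read 10.97, 11.04, 11.05 and 11.29 in wild type unirradiated, 11.36, 11.25, 11.44 and 11.49 in wild type irradiated, 11.12, 11.24, 11.12 and 11.36 in mutant unirradiated and 11.29, 11.72, 11.54 and 11.40 in mutant irradiated cells. The ranges overlapped in both genotypes through 1 high unirradiated extract each, replicate 4. Its rise was 0.29 (SE 0.07, adjusted p = 0.00983), with 0.25 by a second probe set. Also higher were Atp5a1 (0.17 by 1423111_at) and Atp5e (0.17) of F1, Atp5g1 (0.20), a gene for the c ring, the peripheral stalk subunits Atp5o (0.20 by 1416278_a_at) and Atp5h (0.24), and the membrane subunits Atp5k (0.18 and 0.21) and Atp5j2 (0.13). Atp5b, the catalytic beta subunit, gave 0.06 and Atp5c1, the gamma subunit, 0.04, and neither was called. The other c ring genes Atp5g2 (0.16, adjusted p = 0.0617) and Atp5g3 (0.09) were not called.

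**Figure D2:**
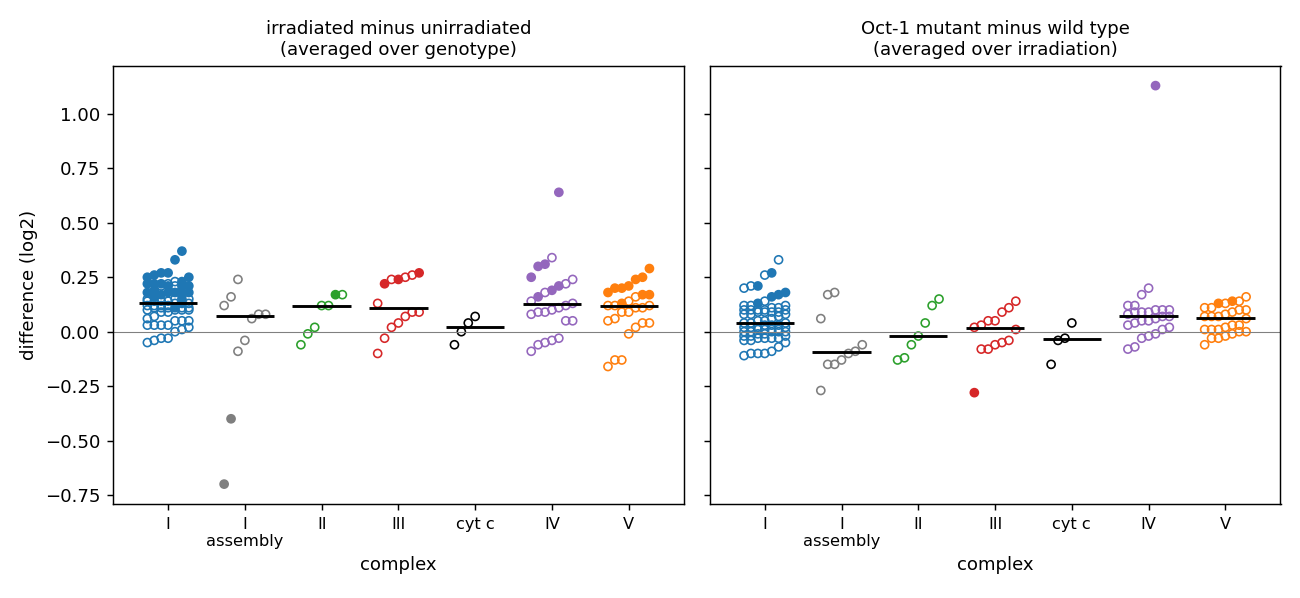
Log2 differences of the 158 member probe sets (y axis) by complex (x axis), for irradiated minus unirradiated averaged over genotype (left) and Oct-1 mutant minus wild type averaged over irradiation (right). Each point is a probe set, filled where it was called, and black lines are medians. The irradiation medians of complexes I to V ran from 0.11 to 0.13, the Ndufaf4 points lay at -0.70 and -0.40, and Cox6b2 stood at 0.64 and 1.13.

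Of the 45 genes with several kept probe sets, 30 had all irradiation differences of one sign and 15 had opposite signs. Among the opposed genes, those with a called rise were Ndufa3, Ndufab1, Ndufb2, Atp5a1, Atp5j2 and Atp5o. Their lowest probe sets gave -0.03 (Ndufa3), -0.03 (Ndufab1), -0.05 (Ndufb2, array B, values from 4.21 to 4.70), -0.13 (Atp5a1), -0.01 (Atp5j2) and -0.16 (Atp5o 1437164_x_at), none of them called. The transcripts each of these probe sets reads were not checked, since no probe sequences were used.

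Irradiation was next compared within each genotype, between groups that share no samples. In wild type cells 8 member probe sets were called, 6 higher and 2 lower, with a median of 0.13 (139 above 0), against 1.47% higher and 0.834% lower of all probe sets (2.31% called). In mutant cells 9 were called, 8 higher and 1 lower, with a median of 0.12 (125 above 0), against 1.65% and 1.02% (2.67%). Within array A the members' shares were nearer to the background: 4.9% in wild type cells, against 3.84% of all array A probe sets, and 6.29% in mutant cells, against 4.65%. With the replicate block the counts were 31 (29 higher) and 38 (37 higher), against 6.1% and 7.16% of all probe sets. On array A the block called 21% and 25.9% of members, against 10.4% and 12.8%. Leaving out 1 extract left 3 to 9 calls in either genotype. The wild type count was 3 without wild type unirradiated replicate 2, 4 without wild type irradiated replicate 1, 3 or 4, and 5 without wild type unirradiated replicate 1 or 3, wild type irradiated replicate 2, mutant unirradiated replicate 1 or 3 or mutant irradiated replicate 3 or 4. The mutant count was 3 without mutant irradiated replicate 2 or 4 or mutant unirradiated replicate 1, 4 without mutant unirradiated replicate 2 and 5 without mutant unirradiated replicate 3. By direction alone, 119 of 158 members (75.3%) were higher in both genotypes and 13 (8.23%) lower in both, against 39.5% and 29% of all probe sets. On array A these shares were 78.3% and 8.39% of members, against 39.3% and 35.5%, and on array B 7 of 15 members were higher in both (46.7%, against 39.7%).

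**Figure D3:**
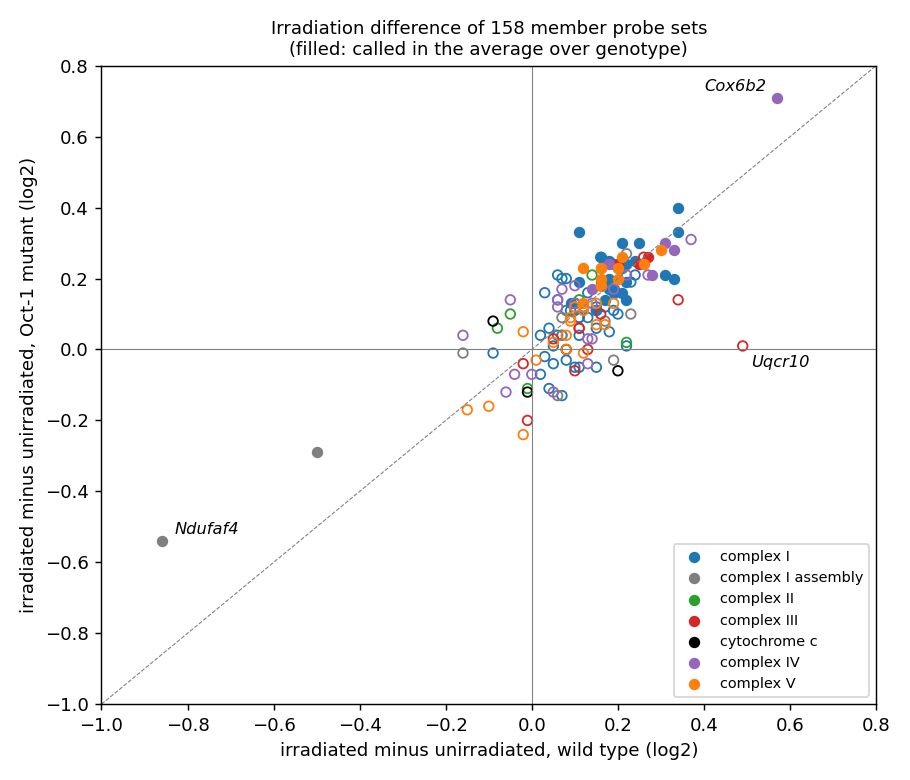
Irradiated minus unirradiated log2 difference in wild type (x axis) and in Oct-1 mutant cells (y axis) for the 158 member probe sets, coloured by complex and filled where called in the average over genotype. The dashed line marks equal differences. Most points lie in the upper right quadrant, where 119 are, Ndufaf4 lies at the lower left and Uqcr10 1434340_at at 0.49 in wild type and 0.01 in the mutant.

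Calls made in both genotypes were those of Ndufb6 (0.31 in wild type and 0.21 in mutant cells), Ndufc2 1416366_at (0.20 and 0.23) and Ndufaf4 1435333_at (-0.86 and -0.54). The wild type call of Ndufc2 1416366_at (limma adjusted p = 0.0479) was lost on leaving out any of 14 extracts. Those of Ndufb6 and Ndufaf4 1435333_at in wild type cells held throughout. No member was called for a difference of the irradiation effect between genotypes: limma called 0 probe sets, 0% of the 27084 tested. With the replicate block no member was called either, and in the unblocked fit 4 members had an unadjusted p under 0.05 (395 of all probe sets). The lowest was that of Uqcr10 1434340_at, a small complex III subunit. It read 7.36, 7.47, 7.71 and 7.63 in wild type unirradiated and 8.20, 7.82, 7.90 and 8.23 in wild type irradiated cells, without overlap, but 7.42, 7.45, 7.63 and 7.54 in mutant unirradiated and 7.55, 7.28, 7.62 and 7.62 in mutant irradiated cells. The difference was 0.49 (SE 0.12, adjusted p = 0.0239) in wild type and 0.01 (SE 0.12, adjusted p = 0.991) in mutant cells, and the difference of these was -0.49 (SE 0.16, unadjusted p = 0.00933, adjusted p = 1). The other Uqcr10 probe sets gave 0.25 and 0.24 (1434341_x_at) and 0.34 and 0.14 (1424364_a_at) in wild type and mutant cells. Ndufv1 1415967_at went the other way, with 0.11 in wild type and 0.33 in mutant cells (unadjusted p of the difference 0.0439, adjusted p = 1).

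The genotype comparison set Oct-1 mutant against wild type cells. The labels do not state strain or embryo, and their part in the differences was not tested. Averaged over irradiation, 9 members were higher and 1 lower in mutant cells, against 3.77% and 2.49% of all probe sets (6.26% called). All 10 were on array A, where they made up 6.99% of the members, below the 10.6% called over all array A probe sets. Their median was 0.04 (106 of 158 above 0), with 0.01 over all probe sets. The block gave 20 higher and 3 lower, against 13.9%, or 16.1% of array A members against 22.5% of array A probe sets. Within unirradiated cells 2 members were called, both higher (background 1.45% higher, 0.705% lower, 2.16% in all, and 6.42% with the block, which called 9 members). Within irradiated cells 2 were called, 1 higher and 1 lower (background 1.41%, 0.672% and 2.09%, and 6.03% with the block, which called 7). On array A these unblocked shares were 1.4% of members in either state, against 3.87% and 3.8% of all probe sets. With the block, 6.29% of array A members were called in unirradiated cells, against 11.1% of all array A probe sets. In irradiated cells the shares were 4.9% and 10.4%. Fibroblast markers moved with genotype: the mean level over all 16 ran from 10.09 to 10.22 in wild type unirradiated, 9.94 to 10.06 in wild type irradiated, 10.39 to 10.59 in mutant unirradiated and 10.19 to 10.51 in mutant irradiated extracts. Their part in the member differences was not tested.

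Cox6b2, the testis isoform of a complex IV subunit (1435275_at, gene at chromosome 7, 4751792 to 4753094 in GRCm38.p6), differed most of all members. It read 6.11, 6.17, 6.02 and 6.27 in wild type unirradiated, 6.81, 6.59, 6.60 and 6.84 in wild type irradiated, 6.88, 6.91, 7.45 and 7.58 in mutant unirradiated and 7.61, 7.72, 8.22 and 8.11 in mutant irradiated cells. The 4 groups formed steps that did not overlap, the narrowest gaps being from 6.84 to 6.88 and from 7.58 to 7.61, and in the mutant groups run 2 lay above run 1. Group means were 6.14 ± 0.10, 6.71 ± 0.13, 7.21 ± 0.36 and 7.92 ± 0.30 (SD, n = 4). The mutant exceeded wild type by 1.13 (SE 0.12, 2.19-fold, limma adjusted p = 9.2e-06), by 1.06 in unirradiated and 1.20 in irradiated cells, and by 0.86 within run 1 and 1.41 within run 2. Irradiation added 0.64 (SE 0.12, adjusted p = 0.00182), with 0.57 (adjusted p = 0.0768, or 0.0109 with the replicate block) in wild type and 0.71 (adjusted p = 0.0208) in mutant cells. Cox6b2 is represented by this probe set alone. Its widely expressed counterpart Cox6b1 gave genotype differences of 0.10 and 0.17 by its probe sets, neither called.

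**Figure D4:**
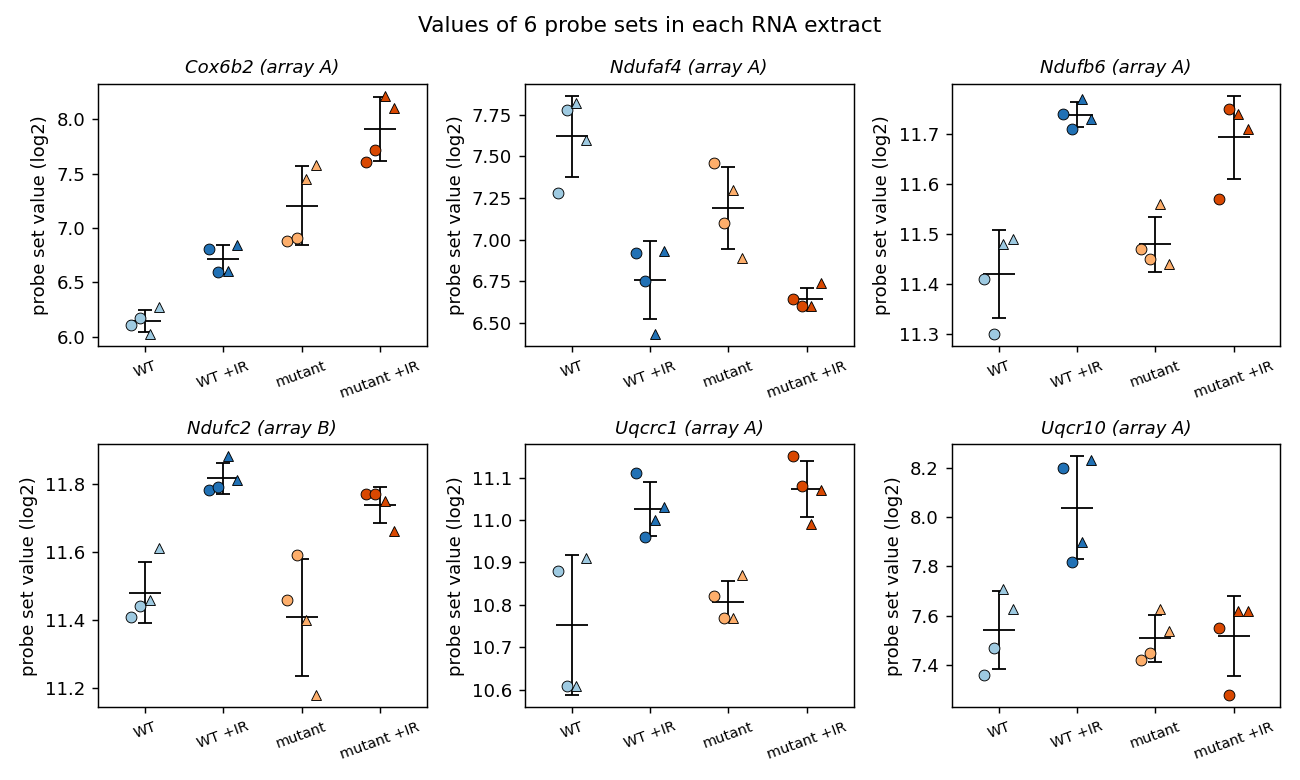
Log2 values (y axis) of 6 member probe sets in the 16 extracts by group (x axis; WT is wild type and +IR irradiated). Circles are number run 1 and triangles run 2, and black lines and bars are the mean and SD (n = 4). Cox6b2 steps up from 6.02 to 8.22 over the groups, Ndufaf4 (1435333_at) falls with irradiation, Ndufb6, Ndufc2 and Uqcrc1 separate by irradiation, and Uqcr10 (1434340_at) is high in wild type irradiated cells alone.

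Other called mutant differences were small. Some uncalled ones in unirradiated cells were larger. Ndufv3 differed by 0.40 (limma adjusted p = 0.22, or 0.00744 with the replicate block) and Ndufa1 by 0.37 (0.182, or 0.000276). Ndufaf4 1435333_at differed by -0.43 (0.142, or 0.0824). In irradiated cells these gave 0.26, 0.16 and -0.11, also uncalled. Ndufa12 1433513_x_at, an N module accessory subunit, read 11.52, 11.58, 11.56 and 11.45 in wild type unirradiated and 11.89, 11.80, 11.71 and 11.95 in mutant unirradiated cells, without overlap, but 11.51, 11.75, 11.71 and 11.76 against 11.73, 11.85, 11.79 and 11.76 after irradiation, where the ranges overlapped. The averaged difference was 0.21 (SE 0.05, adjusted p = 0.00852), and the other Ndufa12 probe sets gave 0.09 and 0.03. Ndufa13, a membrane arm subunit also known as GRIM-19, read 10.96, 11.14, 11.22 and 11.25 in wild type unirradiated, 11.15, 11.20, 11.40 and 11.49 in wild type irradiated, 11.20, 11.45, 11.48 and 11.63 in mutant unirradiated and 11.46, 11.38, 11.69 and 11.72 in mutant irradiated cells. Genotypes overlapped at both irradiation states, and run 2 lay above run 1 in every group. The difference was 0.27 (SE 0.08, adjusted p = 0.0301). Also higher in the mutant were Ndufb11 (0.18), Ndufa2 (0.17), Ndufa3 (0.16 by 1452790_x_at), Atp5g1 (0.14), Ndufb3 (0.13) and Atp5j2 (0.13 by 1435395_s_at). Uqcr10 1434340_at was lower by the average (-0.28, SE 0.08, adjusted p = 0.0413) and by -0.52 in irradiated cells (adjusted p = 0.0174), while its other probe sets gave -0.04 and 0.11 averaged. The calls of Cox6b2 and Ndufa12 held on leaving out each extract, and each of the other 8 was lost without between 6 and 14 of the 16 extracts, with a highest adjusted p from 0.0626 (Ndufb3) to 0.0963 (Atp5g1). The count over members fell to 2 without wild type irradiated replicate 1, to 3 without mutant irradiated replicate 4, mutant unirradiated replicate 4 or wild type unirradiated replicate 2, to 4 without wild type irradiated replicate 2, to 5 without mutant irradiated replicate 2, mutant unirradiated replicate 2 or wild type unirradiated replicate 1, and to 6 without mutant unirradiated replicate 3 or wild type unirradiated replicate 3. In irradiated cells it fell to 1 without mutant irradiated replicate 2 or wild type irradiated replicate 1.

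Genes that build or control the chain but lie outside the naming rule were taken from fixed lists. Of 39 measurements of 34 assembly factors of all complexes, 8 rose with irradiation averaged over genotype and none was called lower, with a median of 0.06. All 8 were among the 28 measurements on array A (28.6%, where 12.8% of all probe sets were called). Sdhaf1, an assembly factor of complex II, rose by 0.63 (adjusted p = 0.00985), Ttc19 of complex III by 0.44 (adjusted p = 0.00229) and Acad9 of complex I by 0.30 (adjusted p = 0.0145). By genotype, 2 were higher in the mutant, 7.14% on array A against a background of 10.6%: Timmdc1 (0.74, adjusted p = 0.00046), an assembly factor of the complex I membrane arm, and Acad9 (0.26). Of 22 measurements of 17 regulators, 2 rose and 1 fell with irradiation, 18.8% of the 16 on array A against 12.8% of all probe sets there: Esrra, the nuclear receptor ERR alpha, rose by 0.42 (adjusted p = 0.0189), Mterf4, a mitochondrial ribosome assembly factor, by 0.33, and Pprc1, a coactivator of the PGC-1 family, differed by -0.26 (adjusted p = 0.0172). Lrpprc, which stabilises mitochondrial mRNA, was lower in the mutant (-0.34, adjusted p = 0.00739), the only regulator called there (6.25% on array A, against 10.6%).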

How the data were processed

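The deposited values are log2 probe set signals, already summarised per probe set. Their range gave the log base, and no label or header named the summarising method. Array medians ran from 6.16 to 6.28 (array A) and from 3.67 to 3.78 (array B), and the values were used without rescaling. The members, gene lists and rules were chosen with earlier results of these data known. Annotation gave 1 gene to each member, and all 184 matched RefSeq by gene identifier. After 64 controls per array type were left out, 13582 probe sets (mean of at least 4.96) and 13502 (at least 3.36) were kept. Each array type had its own fit in limma 3.58.1 under R 4.3.3 (4 group means, variance trend with intensity), with Benjamini-Hochberg adjustment per array type and comparison. The fit was tested on simulated data. Summaries and figures used Python 3.11.15, numpy 2.4.6, pandas 2.3.3 and matplotlib 3.10.9.

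Named members were up to 30 called probe sets with the smallest p, the 2 largest rises and 2 largest falls per complex and averaged comparison, all of complex II, Cyc1 and Cycs, the isoform pairs, and genes with opposed probe sets. Some of these, such as Uqcrb, Cox5a and Atp5pb, and the genotype differences of complex II are not described above. Other genes in the text were called or stand beside a named member. Genes of a list were represented on each array type by their brightest probe set.

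Replicate numbers come from the labels. Same-numbered samples deviated together from their group means (array A correlations between 0.32 and 0.72, array B between 0.242 and 0.603), so blocked counts are given beside the results. Samples of different groups and number runs deviated oppositely (array A between -0.713 and -0.27, array B between -0.592 and -0.183). Deviations sum to 0 within each group, so some opposite deviation follows from the first correlations and is not separate evidence. Pairing by number apart from the runs was not tested. The number of Oct-1 mutant unirradiated replicate 1 on array A was taken from the array B label of the same title. Alternatives covered the filter, quantile normalization, the variance trend, both blocks, each number run alone and each extract left out. The number of arrays limits the precision.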

Additional observations from a re-analysis of the deposited data

Results flagged for a closer look

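Within each group of 4 replicates, values of named members and of the extract medians were examined for one standing apart by Dixon's gap test. Of 336 groups, 15 were marked, and chance marks about 1 in 20. High values were seen for Ndufaf4 1427997_at in Oct-1 mutant irradiated replicate 4 (9.21, the others 8.76 to 8.80) and Ndufa8 in wild type irradiated replicate 3 (11.25, others 11.15 to 11.16). Low values were seen for Atp5g1 in wild type irradiated replicate 1 (10.95, others 11.08), Uqcr11 in Oct-1 mutant irradiated replicate 1 (10.29, others 10.44 to 10.47) and Sdhd 1428235_at in wild type irradiated replicate 4 (10.44, others 10.66 to 10.71). Oct-1 mutant unirradiated replicate 1 was low for Ndufv1 1456015_x_at (9.83, others 10.04 to 10.07) and Ndufa3 1428464_at (12.34, others 12.61 to 12.62).

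On array B, 6 values of dim probe sets were marked. Oct-1 mutant unirradiated replicate 4 was high for Atp5j2 1443495_at (5.12, others 4.55 to 4.64), Ndufc2 1431670_at (5.46, others 5.21 to 5.25) and Ndufs4 1459760_at (4.40, others 4.07 to 4.12). The same Ndufc2 probe set was high in wild type irradiated replicate 3 (5.35, others 5.22 to 5.24). Cycs 1445484_at was high in wild type unirradiated replicate 3 (3.74, others 3.55 to 3.58) and low in wild type irradiated replicate 4 (3.37, others 3.55 to 3.58).

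Among the extract medians, Oct-1 mutant irradiated replicate 1 was low over all members (0.00, others 0.09 to 0.11) and replicate 2 of that group was high for the complex I assembly factors (0.07, others -0.04 to -0.03).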

How the results depend on the processing

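Medians over members kept their direction under every alternative run in both averaged comparisons: with irradiation 0.10 to 0.13, with genotype 0.02 to 0.06. Counts of called members moved more. For irradiation in wild type (8), they were 5 without the filter and 5 after quantile normalization; for genotype averaged (10), 5 without the filter, 6 after quantile normalization and 6 without the variance trend. With the replicate block, which fits a term for each replicate number, the counts were 31 and 38 for irradiation in wild type and mutant, 9 and 7 for genotype unirradiated and irradiated, and 76 and 23 for the averages. The number run block gave 31, 35, 9, 7, 75 and 22 in that order. Run 1 alone, on 8 of the 16 extracts, gave 5, 5, 1, 1, 25 and 4, and run 2 alone 1, 1, 4, 1, 24 and 5. Omitting 1 extract gave 3 to 9, 3 to 9, 2 to 2, 1 to 2, 29 to 48 and 2 to 11. The cause of these changes was not tested. Shares over all probe sets are given only for the main fit and the replicate block. Counts under the other settings, omissions included, therefore do not show whether members changed more than other probe sets. Selecting members by the platform's own symbols gave the same members.

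Of 76 named results, 37 called, the replicate block lost no call, and leaving out single extracts lost 10. The named results include the called probe sets with the smallest p, a choice that favours stable calls. Uncalled values that changed sign were Ndufb2 1442658_at in wild type irradiation (0.01 within run 1, and -0.13 to 0.01 with each extract left out in turn), Cox4i2 in wild type irradiation (0.01 within run 2), Atp5a1 1420037_at by genotype unirradiated (-0.02 without Oct-1 mutant unirradiated replicate 4, and up to 0.40 without another extract) and the Sdha 1426689_s_at genotype difference in irradiation (-0.02 within run 2). Dim probe sets near the filter level measure little signal over background, which was not measured itself.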

Other observations

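Genes around the respiratory chain were listed too. Of 22 measurements of 18 genes of the tricarboxylic acid cycle, 1 rose with irradiation averaged over genotype, with a median of 0.05. On array A that is 5.88% of 17, against 12.8% of all probe sets. It was Pcx, the pyruvate carboxylase that refills the cycle (0.36, SE 0.07, limma adjusted p = 0.00234), which was also higher in mutant cells (0.32, adjusted p = 0.0063). In the genotype comparison 17.6% of the 17 on array A were called, against 10.6% of all probe sets there. On array B it was 1 of 5, against 1.9%. Beside Pcx, 3 of the cycle were lower in the mutant: Idh3a, a subunit of NAD-dependent isocitrate dehydrogenase (-0.24, SE 0.04, adjusted p = 0.000481), Suclg2, a succinyl-CoA ligase subunit (-0.24, adjusted p = 0.0225), and Dlst, the succinyltransferase of the oxoglutarate dehydrogenase complex (-0.26 on array B, adjusted p = 0.0407). Of 14 measurements of 12 carriers, electron transfer and uncoupling genes, 1 rose with irradiation (9.09% of 11 on array A, against 12.8%). It was Etfb, a subunit of electron transfer flavoprotein (0.24, adjusted p = 0.0207). By genotype limma called 0 of the 14. An unadjusted p under 0.05 was found for 6 of the 14 and for 5177 of all 27084 probe sets. With the replicate block 5 were called, against 13.9% of all probe sets.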
